A study of Mus musculus with 15 samples.

Results

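The urea cycle and ammonia enzymes of the mouse liver were followed as a set of 10 genes, Cps1, Otc, Ass1, Asl, Arg1, Nags, Glul, Gls2, Oat and Glud1. They were taken by gene symbol, and all 10 were found among the 17527 genes measured. RNA was sequenced from 15 liver samples, each called a liver here, 5 in each of 3 groups called BBBPH, Model and Control. BBBPH and Model mice both carried a nonalcoholic steatohepatitis brought on by 20 weeks of a rich diet, in which fat supplied 60% of the calories, protein 20% and carbohydrate 20%, with cholesterol at 0.2%. Their drinking water also contained sugar at 42 g/L, of which 55% was sucrose and 45% fructose. Once 12 weeks had passed, the BBBPH mice took biotransformed bear bile powder by mouth at 150 mg/kg every day, and the Model mice took saline, while the diet went on. The dosed group counted 14 mice, and 5 samples of it were sequenced. The labels do not give the feed of the Control mice, nor strain, sex or age, and no genetic change is named for any group.

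The urea cycle is the main route by which mammals dispose of the ammonia released from amino acids, and in full it runs in the hepatocytes around the portal veins. Ammonia enters in the mitochondrion through carbamoyl phosphate, is carried on ornithine, citrulline and argininosuccinate, and leaves as urea when arginine is split. Ammonia that escapes is caught by glutamine synthetase in a narrow rim of hepatocytes around the central veins, while glutaminase, glutamate dehydrogenase and ornithine aminotransferase connect the cycle to the glutamate pool.

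Expression is given as FPKM, in which fragments are scaled to gene length and library size, so that comparisons of different genes depend on the gene lengths used. Differences were tested by limma on log2(FPKM + 1), and a gene was called when its Benjamini-Hochberg adjusted p was under 0.05. Libraries held 35395712 to 39624160 fragments. Every member stood far above the counting limit, with 1155 to 2285 fragments for Nags, the least abundant, and 72026 to 188537 for Cps1. The labels present the replicates as separate samples and do not state that each is a separate animal, so p measures the spread between these samples. Values per liver are listed in the order of the labels' replicate numbers, which are 2_1, 2_2, 3_1, 3_2 and 3_4 for BBBPH, 1_1, 1_4, 2_1, 2_3 and 3_4 for Model, and 1_1, 1_5, 2_1, 2_2 and 3_4 for Control.

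The labelled tissue matched its markers, since 8 hepatocyte markers summed to 62507 to 72719 FPKM in BBBPH livers, 42814 to 62768 in Model livers and 66810 to 76755 in Control livers, with none at 0. Some livers stood apart. BBBPH 2_2 held 978 FPKM of the pancreatic gene Ctrb1, Control 2_1 held 70.01 FPKM of the muscle gene Tnnt3, and Model 1_4 held 252 FPKM of Spp1, against 21.1 to 30.2 in the other Model livers. Model 1_4 also held 21144 FPKM of the hepatocyte marker Alb, against 27873 to 39796 in the other Model livers. Among the members, Control 3_4 was the lowest Control liver for 9 of 10 genes, Model 1_4 the lowest Model liver for 8, and BBBPH 3_1 the lowest BBBPH liver for 7. The summed macrophage markers were highest in BBBPH 3_1 (675 FPKM, against a BBBPH median of 448) and in Model 1_4 (526 FPKM, against a Model median of 444), while the hepatocyte sum was highest of all in Control 3_4. Of 8 stellate cell markers, 7 were higher and 0 lower in Model than in Control livers, against 29.9% and 8.64% of all genes tested. In BBBPH against Model livers 0 were higher and 4 lower, against 14.2% and 12.2% of all genes. In BBBPH against Control livers 2 were higher and 0 lower, against 24.4% and 3.7% of all genes. The stellate marker sum was 126 to 141 FPKM in BBBPH livers, 140.0 to 178 in Model livers and 106 to 131 in Control livers. The part of these markers in the results was not tested. For Model over Control, BBBPH over Model and BBBPH over Control in turn, calls higher and lower were 0 and 2, 1 and 1, and 1 and 1 of 8 hepatocyte markers, and 3 and 1, 1 and 1, and 1 and 0 of 6 endothelial markers. Of 8 macrophage markers 1 was higher and 0 lower in each comparison, and none was called among the tested cholangiocyte (2), T and B cell (1), pancreatic acinar (9) and skeletal muscle (5) markers. The acinar markers passed the filter only through BBBPH 2_2 (sum 4082 FPKM, BBBPH median 0.926). The tested muscle markers did so only through Control 2_1 (sum 365 FPKM, Control median 1.34). A gene high in a single liver can hardly be called, so for these markers the lack of calls does not compare the groups. In whole liver, fewer cells of a type and less RNA per cell cannot be told apart.

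**Figure D1:**
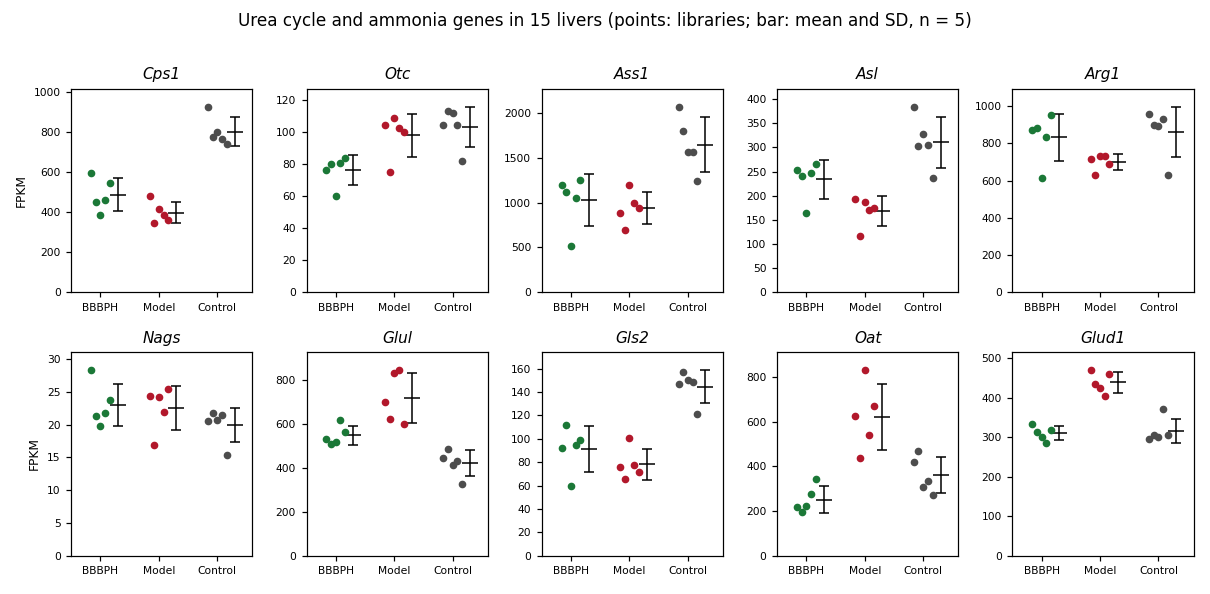
FPKM (vertical axes, from 0) of the 10 genes in BBBPH, Model and Control livers, with 1 point per library and a bar for the mean and SD (n = 5). Cps1, Ass1, Asl and Gls2 lie lower in every Model liver than in every Control liver, whereas Glul and Glud1 lie higher.

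The comparison of Model with Control livers asked what the diet model did to these enzymes. Cps1, Ass1, Asl and Gls2 fell, and Glul, Oat and Glud1 rose. These 7 of 10 members, 3 higher and 4 lower, stand against 38.6% of all 9575 genes tested, of which 29.9% were higher and 8.64% lower. The livers of both groups did not overlap for 6 members, 2 higher and 4 lower, against 23.9% of all genes (18.8% higher and 5.07% lower). The median log2 fold change was -0.18 over the members and 0.12 over all genes. The list itself was not tested. The all-gene median moved to -0.01 with median-ratio scaling, under which 1483 genes were higher and 1809 lower in place of 2865 and 827, and quantile scaling gave 1499 and 1742. The 7 calls of members held their direction and their side of the threshold under all 30 alternatives. Leaving out a BBBPH liver or changing the filter left the fold changes themselves unchanged and could alter only the adjusted p.

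Cps1, carbamoyl phosphate synthetase 1, fixes ammonia at the entry of the cycle, and its row corresponds to chr1:67123026-67231259 (+ strand, GRCm38, as are all gene positions here). Its level was 481, 346, 415, 387 and 360.0 FPKM in Model livers, against 925, 777, 799, 768 and 742 FPKM in Control livers. All Model livers lay below all Control livers, and the highest Model value was well short of the lowest Control value. The mean fell by 50.4%, to 398 ± 53.3 FPKM in Model livers, against 802 ± 71.6 FPKM in Control livers (SD, n = 5 each; log2 fold change -1.02 ± 0.12 SE, adjusted p = 1.98e-05).

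Nags (chr11:102145513-102149477, +) makes N-acetylglutamate, without which Cps1 is inactive. Its levels were 24.3, 16.9, 24.3, 21.8 and 25.4 FPKM in Model livers and 20.5, 21.7, 20.8, 21.5 and 15.4 FPKM in Control livers. The groups overlapped and Nags gave no call (log2 fold change 0.16, adjusted p = 0.301). Otc (chrX:10252305-10321024, +), ornithine transcarbamylase, joins carbamoyl phosphate to ornithine to make citrulline. It had 105, 74.96, 109, 102 and 99.9 FPKM in Model livers and 104, 113, 112, 105 and 82.0 FPKM in Control livers. The ranges lay over each other, and no change was called (log2 fold change -0.07, adjusted p = 0.646). Both genes of the mitochondrial steps beside Cps1 thus gave values with no called difference. The difference of Otc was 0.02 without Model 1_4, the opposite sign, and remained uncalled (adjusted p = 0.90).

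Ass1 (chr2:31470207-31520672, +), argininosuccinate synthetase, brings in the second nitrogen of urea from aspartate. It had 883, 694, 1198, 989 and 935 FPKM in Model livers, against 2061, 1790.1, 1562, 1564 and 1238 FPKM in Control livers. The highest Model liver, 2_1, came close to the lowest Control liver, 3_4, but the groups did not overlap. Ass1 fell to 939.8 ± 182 FPKM in Model livers, against 1643 ± 305 FPKM in Control livers (log2 fold change -0.81 ± 0.22 SE, adjusted p = 0.00843). Asl (chr5:130011258-130029247, -), argininosuccinate lyase, cleaves the product to arginine and fumarate. It had 194, 117, 187, 169.7 and 174 FPKM in Model livers, against 383, 303, 327, 304 and 237 FPKM in Control livers. Again every Model liver was below every Control liver, with Model 1_4 the lowest, and Asl fell by 0.89 ± 0.16 SE on the log2 scale (adjusted p = 0.000636).

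Arg1 (chr10:24915221-24927484, -), liver arginase, releases urea and returns ornithine. It had 718, 631, 730.4, 732 and 688 FPKM in Model livers and 959.9, 899, 892, 931 and 630.0 FPKM in Control livers. A single Control liver, 3_4, lay as low as the lowest Model liver, and the other 4 Control livers lay above all Model livers. Arg1 gave no call over all 15 livers (log2 fold change -0.29 ± 0.12 SE, adjusted p = 0.0804). It was called lower without Control 3_4 (-0.40, adjusted p = 0.0102), without BBBPH 3_1 (adjusted p = 0.0398), without both (adjusted p = 0.000851), with median-ratio scaling (adjusted p = 0.0129) and without the 20 most abundant genes (adjusted p = 0.0400). BBBPH 3_1 is in neither group compared, so leaving it out alone kept the fold change at -0.29 and altered only the test.

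On the glutamine side, Glul and Gls2 moved in opposite directions. Glul (chr1:153899944-153909723, +), glutamine synthetase, had 699, 624, 833, 844 and 601 FPKM in Model livers, against 445, 488, 412, 432 and 329 FPKM in Control livers. No Model liver was as low as any Control liver, and the means were 720.2 ± 114 FPKM in Model livers and 421 ± 58.5 FPKM in Control livers (log2 fold change 0.77 ± 0.12 SE, adjusted p = 0.000172). Gls2 (chr10:128194457-128210004, +), the liver glutaminase that frees ammonia from glutamine in the mitochondrion, had 76.2, 65.6, 100.9, 77.2 and 71.9 FPKM in Model livers, against 147, 157, 150.2, 148 and 121 FPKM in Control livers. All Model livers lay below all Control livers (log2 fold change -0.89 ± 0.15 SE, adjusted p = 0.000347). The exons of Gls2 share 97 bases with Spryd4 on the other strand, which averaged 14.8 FPKM. Those of Nags share 443 bases with an antisense gene, Gm11586, and the strand setting of the libraries is not stated, so such reads cannot be assigned.

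Oat (chr7:132557478-132576398, -), ornithine aminotransferase, takes ornithine out of the cycle towards glutamate. Its level was 627, 438, 829.6, 541 and 669 FPKM in Model livers, against 418, 467, 309, 335 and 271 FPKM in Control livers. Control 1_5 lay above Model 1_4, so the ranges overlapped, while the other 4 Model livers were above every Control liver. Oat rose to 621 ± 146 FPKM in Model livers, against 360.2 ± 80.5 FPKM in Control livers (log2 fold change 0.78 ± 0.19 SE, adjusted p = 0.00486). Glud1 (chr14:34310727-34345265, +), glutamate dehydrogenase, which frees ammonia from glutamate or takes it up, had 469, 435, 425, 404 and 461 FPKM in Model livers, against 294.7, 305, 301.3, 371 and 306 FPKM in Control livers. The groups lay apart, with Control 2_2 nearest to the Model livers, and Glud1 rose by 0.48 ± 0.07 SE on the log2 scale (adjusted p = 0.000226).

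The stretches around the start of transcription are shown for Oat, Glul and Glud1, the 3 members that were called higher in Model than in Control livers and lower in BBBPH than in Model livers, and for Ass1, the most abundant member and a gene called lower in Model. Each runs 5′ to 3′ on the gene's own strand, from 250 bases before to 50 after the start in RefSeq (GRCm38.p6), and covers chr7:132576349-132576648 (-) for Oat, chr1:153899679-153899978 (+) for Glul, chr14:34310477-34310776 (+) for Glud1 and chr2:31470020-31470319 (+) for Ass1. Capitals mark the motif matches listed after them.
Oat: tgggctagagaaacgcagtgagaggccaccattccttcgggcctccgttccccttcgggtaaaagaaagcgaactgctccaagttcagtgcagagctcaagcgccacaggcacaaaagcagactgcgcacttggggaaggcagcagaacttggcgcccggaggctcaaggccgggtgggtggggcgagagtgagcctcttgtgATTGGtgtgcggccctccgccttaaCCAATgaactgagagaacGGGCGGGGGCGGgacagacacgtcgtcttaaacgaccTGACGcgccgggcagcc
Glul: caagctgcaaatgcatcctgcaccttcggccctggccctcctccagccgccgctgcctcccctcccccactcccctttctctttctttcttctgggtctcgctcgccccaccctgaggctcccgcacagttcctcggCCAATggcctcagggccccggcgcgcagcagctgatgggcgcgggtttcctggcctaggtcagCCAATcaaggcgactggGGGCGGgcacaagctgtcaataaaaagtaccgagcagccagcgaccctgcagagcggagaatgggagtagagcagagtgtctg
Glud1: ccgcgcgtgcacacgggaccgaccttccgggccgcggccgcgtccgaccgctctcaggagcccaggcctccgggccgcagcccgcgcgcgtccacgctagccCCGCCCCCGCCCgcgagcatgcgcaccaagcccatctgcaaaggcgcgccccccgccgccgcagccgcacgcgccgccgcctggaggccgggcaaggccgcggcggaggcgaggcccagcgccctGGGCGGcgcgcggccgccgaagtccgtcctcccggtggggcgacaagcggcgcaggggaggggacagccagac
Ass1: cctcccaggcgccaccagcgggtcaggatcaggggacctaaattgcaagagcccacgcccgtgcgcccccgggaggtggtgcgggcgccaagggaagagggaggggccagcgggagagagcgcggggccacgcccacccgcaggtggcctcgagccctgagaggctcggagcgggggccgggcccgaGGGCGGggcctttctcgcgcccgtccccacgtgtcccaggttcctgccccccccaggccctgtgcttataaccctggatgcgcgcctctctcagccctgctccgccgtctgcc

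RefSeq start regions were matched for 6 members, the 4 shown with Otc and Nags. On both strands, 7 motifs were searched in them and in 32851 start regions of the same length. The GC box GGGCGG was found in 5 of the 6 members, all except Otc, and in 35.7% of all start regions. CCAAT was found in Glul and Oat, and in 37.4% of all. The core of the cAMP response element, TGACG, was found in Oat and Nags, and in 20.8% of all, and the TCF/LEF core CTTTGA in Nags, and in 16% of all. The whole cAMP element TGACGTCA, which contains that core, the C/EBP form TTGCNNAA and TATAAA were in none of the 6, against 1.79%, 10.8% and 13.6% of all start regions. Bases G and C made up 81.0% of the Glud1 stretch, 74.0% of Ass1, 64.3% of Glul, 61.7% of Oat, 57.7% of Nags and 44.3% of Otc, against a median of 52.7%. A match describes letters and is not a bound site.

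The comparison of BBBPH with Model livers asked what dosing changed while the diet continued. Oat, Glud1, Glul and Otc fell and Asl rose, which makes 5 of 10 members called, 1 higher and 4 lower, against 26.5% of all genes (14.2% higher and 12.2% lower). BBBPH livers lay apart from Model livers for 2 members, both lower, against 17.0% of all genes (9.11% higher and 7.9% lower). The median log2 fold change was 0.06 over the members and 0.02 over all genes. Both this comparison and the one before it use the same Model livers, so that a Model value that is high or low by chance enters both.

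Oat gave the largest difference of the 10 genes in this comparison. It had 216, 194, 222, 276 and 344 FPKM in BBBPH livers, and its 438 to 829.6 FPKM in Model livers all lay above them. The mean fell to 250.6 ± 60.5 FPKM in BBBPH livers, against 621 ± 146 FPKM in Model livers (log2 fold change -1.30 ± 0.19 SE, adjusted p = 0.000187). Glud1 had 334, 314, 301.2, 286 and 319 FPKM in BBBPH livers, below all Model livers, whose lowest value was 404 FPKM. It fell to 311 ± 18.3 FPKM in BBBPH livers, against 439 ± 26.4 FPKM in Model livers (log2 fold change -0.50 ± 0.07 SE, adjusted p = 0.000235). Both calls held with each liver left out in turn, at log2 fold changes of -1.43 to -1.19 for Oat and -0.53 to -0.47 for Glud1.

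Glul had 533, 509, 518, 618 and 565 FPKM in BBBPH livers, and the highest of these, 3_2, passed the lowest Model liver, 3_4, at 601 FPKM. It fell by 0.38 ± 0.12 SE on the log2 scale (adjusted p = 0.0246). That call ended without BBBPH 2_2, BBBPH 3_1, Model 2_1 or Model 2_3 (adjusted p = 0.0581, 0.0525, 0.0630 and 0.0651) and without 3 libraries together, BBBPH 2_2, Model 1_4 and Control 2_1 (adjusted p = 0.0503). Gls2, the opposing enzyme, had 92.3, 111, 59.3, 94.5 and 99.0 FPKM in BBBPH livers, with both the lowest and the highest value of the 10 livers compared. No call was made (log2 fold change 0.20, adjusted p = 0.329), and without the low liver BBBPH 3_1 it was called higher (0.35, adjusted p = 0.0369).

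Among the enzymes of the cycle itself, Asl had 253, 240.1, 163, 246 and 266 FPKM in BBBPH livers. Of these, 4 lay above every Model liver, and BBBPH 3_1 lay within the Model range of 117 to 194 FPKM. Asl rose by 0.47 ± 0.16 SE on the log2 scale (adjusted p = 0.0384). The call ended without BBBPH 2_1, 2_2, 3_2 or 3_4 (adjusted p = 0.0747, 0.0736, 0.0778 and 0.0859), without Model 1_4, 2_3 or 3_4 (adjusted p = 0.0911, 0.0604 and 0.0536), without the same 3 libraries together (adjusted p = 0.165), without a filter on low values (adjusted p = 0.0690) and in a fit of the 10 livers alone (adjusted p = 0.0515). Otc had 76.2, 80.4, 60.0, 80.8 and 83.8 FPKM in BBBPH livers, lower than all Model livers other than Model 1_4 at 74.96 FPKM. It fell by 0.36 ± 0.12 SE on the log2 scale (adjusted p = 0.0350). This call ended without BBBPH 2_1 or 3_1 (adjusted p = 0.0531 and 0.0901), without Model 1_1, 2_1, 2_3 or 3_4 (adjusted p = 0.0774, 0.0805, 0.0704 and 0.0626), without a filter (adjusted p = 0.0564) and without the 20 most abundant genes (adjusted p = 0.0592).

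The other cycle enzymes were not called between BBBPH and Model livers. Cps1 had 594, 451, 388, 459 and 549 FPKM in BBBPH livers, with 2 livers above the highest Model liver and a mean of 488 ± 82.1 FPKM (log2 fold change 0.29 ± 0.12 SE, adjusted p = 0.0794). It was called higher without BBBPH 3_1 (0.37, adjusted p = 0.0283), without Model 1_1 (0.36, adjusted p = 0.0376) and without BBBPH 3_1 and Control 3_4 (adjusted p = 0.0294). Arg1 had 874, 886, 616, 834 and 950.3 FPKM in BBBPH livers, where 4 livers lay above all Model livers and BBBPH 3_1 lay below all of them. Over all livers Arg1 was not called (0.24, adjusted p = 0.181), and without BBBPH 3_1 it was called higher (0.34, adjusted p = 0.0370). Ass1 had 1192, 1121, 519.8, 1051 and 1246 FPKM in BBBPH livers, again with 3_1 far below the others, and was not called (0.08, adjusted p = 0.806). Nags had 28.2, 21.3, 19.8, 21.8 and 23.8 FPKM in BBBPH livers and was not called (0.03, adjusted p = 0.873). The count of 5 called members was between 2, without Model 2_3, and 6, without BBBPH 3_1. It was 3 without BBBPH 2_1, BBBPH 2_2, Model 2_1 or Model 3_4, and 8, with 4 higher and 4 lower, without BBBPH 3_1 and Control 3_4, a choice made after seeing the data.

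The comparison of BBBPH with Control livers gave what differed between dosed livers on the diet and Control livers. Cps1, Otc, Ass1 and Gls2 fell and Glul rose, which makes 5 of 10 members, 1 higher and 4 lower, against 28.1% of all genes (24.4% higher and 3.7% lower). Of these 5 members, only Otc had not been called between Model and Control livers (log2 fold change -0.07, adjusted p = 0.646). The livers lay apart for 3 members, 1 higher and 2 lower, against 17.5% of all genes (15.3% higher and 2.22% lower). The median was -0.42 over the members and 0.13 over all genes. Over all genes 2337 were higher and 354 lower, and the split was 667 and 944 with median-ratio scaling and 691 and 849 with quantile scaling.

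Cps1, at 388 to 594 FPKM, stayed below all Control livers, at 742 to 925 FPKM (log2 fold change -0.73 ± 0.12 SE, adjusted p = 0.000762). Gls2, at 59.3 to 111 FPKM, stayed below all Control livers, at 121 to 157 FPKM (-0.68 ± 0.15 SE, adjusted p = 0.00427). Glul, at 509 to 618 FPKM, stayed above all Control livers, at 329 to 488 FPKM (0.39 ± 0.12 SE, adjusted p = 0.0225). The call of Glul ended with median-ratio scaling, where the difference was 0.21 (adjusted p = 0.163), without BBBPH 3_2 (adjusted p = 0.0617), without Control 3_4 (adjusted p = 0.0541) and without BBBPH 3_1 and Control 3_4 (adjusted p = 0.0649). Otc averaged 76.2 ± 9.46 FPKM in BBBPH livers and 103 ± 12.5 FPKM in Control livers, and overlapped through BBBPH 3_4 and Control 3_4 (-0.43 ± 0.12 SE, adjusted p = 0.0147). Ass1 averaged 1026 ± 292 FPKM in BBBPH livers and 1643 ± 305 FPKM in Control livers, and overlapped by the highest BBBPH and the lowest Control liver (-0.72 ± 0.22 SE, adjusted p = 0.0219). Its call ended with quantile scaling (adjusted p = 0.0586) and without Control 1_1 (adjusted p = 0.0548).

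For the remaining 5 members no difference between BBBPH and Control livers was called. Glud1 averaged 311 ± 18.3 FPKM in BBBPH livers and 316 ± 31.4 FPKM in Control livers (log2 fold change -0.02 ± 0.07 SE, adjusted p = 0.862). Arg1 averaged 832 ± 128 FPKM in BBBPH livers and 862 ± 133 FPKM in Control livers (-0.05, adjusted p = 0.781), and Nags 23.0 ± 3.27 FPKM in BBBPH livers and 20.0 ± 2.59 FPKM in Control livers (0.19, adjusted p = 0.24). Asl averaged 234 ± 40.5 FPKM in BBBPH livers and 311 ± 52.7 FPKM in Control livers (-0.41 ± 0.16 SE, adjusted p = 0.0632). Asl was called lower with median-ratio scaling (adjusted p = 0.0227), without Model 1_4 (adjusted p = 0.0320) and without Control 3_4 (adjusted p = 0.0325). Model 1_4 is in neither group compared, so without it the fold change of Asl stayed at -0.41. Oat averaged 250.6 ± 60.5 FPKM in BBBPH livers and 360.2 ± 80.5 FPKM in Control livers, at the edge of the threshold (-0.52 ± 0.19 SE, adjusted p = 0.0501). Among 30 alternatives, 12 called Oat lower, at adjusted p = 0.0192 to 0.0486, 4 of them without 1 library, which was BBBPH 3_4, Model 1_4, Model 2_1 or Control 3_4 (adjusted p = 0.0221, 0.0351, 0.0418 and 0.0335). Leaving out either Model library kept the fold change of Oat at -0.52 and altered only the test.

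**Figure D2:**
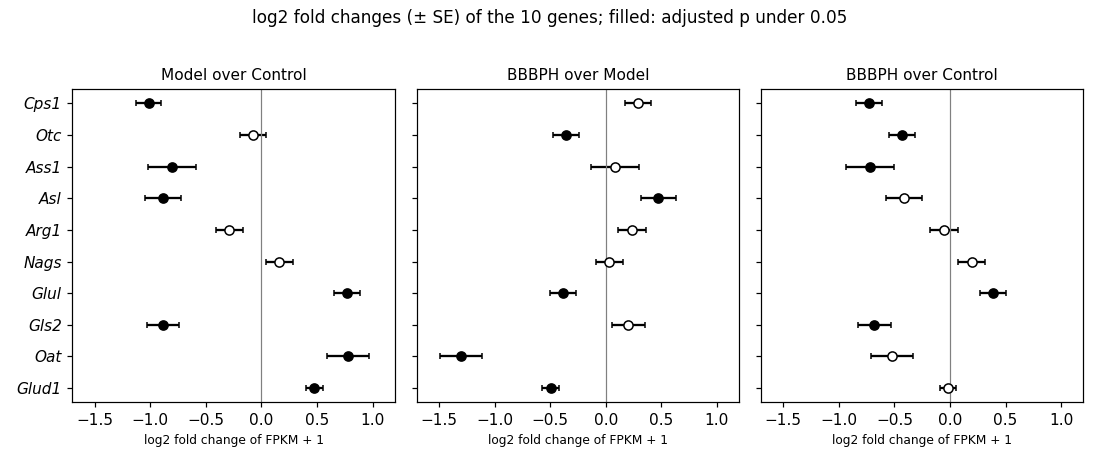
Log2 fold changes of FPKM + 1 (horizontal axes) of the 10 genes in the 3 comparisons, with the SE as bars, and filled points where the adjusted p was under 0.05. Cps1 lies at -1.02 for Model over Control, at 0.29 for BBBPH over Model and at -0.73 for BBBPH over Control, and Oat at 0.78, -1.30 and -0.52.

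By level, Ass1 was the highest and Nags the lowest member in all 3 groups. Between them the order of means was Arg1, Glul, Cps1, Glud1, Oat, Asl, Gls2 and Otc in BBBPH livers. It was Glul, Arg1, Oat, Glud1, Cps1, Asl, Otc and Gls2 in Model livers, and Arg1, Cps1, Glul, Oat, Glud1, Asl, Gls2 and Otc in Control livers. Many neighbours in these orders shared part of their ranges. Ranges lay apart for Cps1 over Glud1, Asl over Gls2 and Otc over Nags in BBBPH livers, and for Cps1 over Asl, Asl over Otc and Gls2 over Nags in Model livers. In Control livers they lay apart for Ass1 over Arg1, Cps1 over Glul, Asl over Gls2, Gls2 over Otc and Otc over Nags. In Model livers Glul was above Arg1 in 2 of 5 livers, so the order of that pair is not fixed. All these orders rest on the gene lengths behind the FPKM. The lengths recovered from the values differed from the annotated exon lengths, with 1891 against 4831 bases for Asl, 1631 against 2414 for Ass1 and 4757 against 4241 for Otc. Other lengths could change the order of genes, which was not tested.

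Ratios of members within a liver do not depend on how the liver was scaled, and they were formed with the values known, as a description. Their size depends on the gene lengths used, which are the same in all groups. Glul exceeded Gls2 by 6.26 ± 1.55 times in BBBPH livers, 9.25 ± 1.08 times in Model livers and 2.90 ± 0.170 times in Control livers. The ranges were 4.57 to 8.73 in BBBPH livers, 8.26 to 10.9 in Model livers and 2.72 to 3.11 in Control livers, so that all BBBPH livers exceeded all Control livers and 1 reached into the Model range. Oat stood to Otc at 3.30 ± 0.675 in BBBPH livers, 6.29 ± 0.899 in Model livers and 3.48 ± 0.576 in Control livers, and Model livers lay above both other groups. Cps1 stood to Otc at 6.42 ± 0.878 in BBBPH livers, 4.08 ± 0.483 in Model livers and 7.85 ± 1.02 in Control livers, and Model livers lay below both other groups. Glud1 to Cps1 was 0.563 to 0.775 in BBBPH livers, 0.976 to 1.28 in Model livers and 0.319 to 0.484 in Control livers, with no overlap among the 3 groups. Arg1 to Cps1 was 1.47 to 1.96 in BBBPH livers and 1.49 to 1.91 in Model livers, against 0.849 to 1.21 in Control livers. Ass1 to Asl was 3.18 to 4.72 in BBBPH livers, 4.56 to 6.41 in Model livers and 4.78 to 5.91 in Control livers, so that Model livers overlapped both other groups and all BBBPH livers lay below all Control livers.

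**Figure D3:**
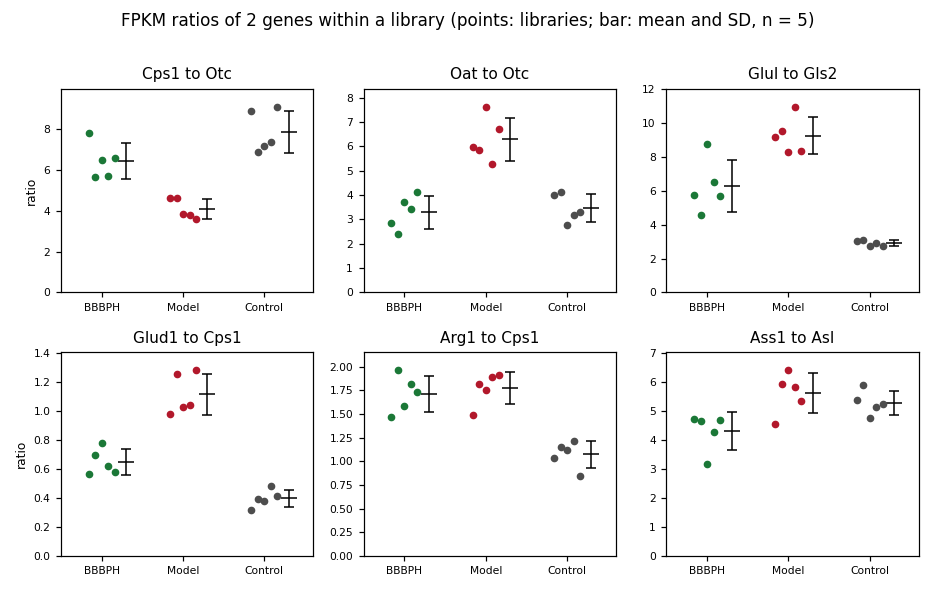
Ratios of the FPKM of 2 members within each library (vertical axes, from 0) in BBBPH, Model and Control livers, with 1 point per library and a bar for the mean and SD (n = 5). Glud1 to Cps1 separates all 3 groups, with Model livers at 0.976 to 1.28, and Ass1 to Asl in Model livers overlaps both other groups.

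The 5 enzymes that form the cycle, Cps1, Otc, Ass1, Asl and Arg1, together took 0.536% ± 0.107 of the summed FPKM in BBBPH livers, 0.472% ± 0.0629 in Model livers and 0.754% ± 0.104 in Control livers (SD, n = 5 each). Their share was 0.354% to 0.621% in BBBPH livers, 0.377% to 0.546% in Model livers and 0.609% to 0.901% in Control livers. Every Model liver was thus below every Control liver, and BBBPH livers overlapped both. All 10 members took 0.784% ± 0.121 in BBBPH livers, 0.857% ± 0.112 in Model livers and 1.01% ± 0.125 in Control livers.

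The likeness of members was measured as the mean absolute difference of their standardized log2 levels over the 15 livers, which share libraries, so the values are a description. Of the 45 pairs of members, Ass1 and Gls2 were closest (0.305 SD units), followed by Cps1 and Asl (0.317), and Cps1 and Glul were farthest apart (1.56). Among 5578 genes averaging 5 FPKM or more, the 4 with a profile nearest to Cps1 were Ces2a (0.233), Serpina1d (0.281), Cyp2c70 (0.307) and Asl, where the median gene stood at 1.33. Ces2a, a carboxylesterase, averaged 47.5 ± 7.74 FPKM in BBBPH livers, 44.1 ± 7.71 FPKM in Model livers and 105 ± 12.7 FPKM in Control livers. Nearest to Glul were Gtf2h5 (0.235), Hsbp1 (0.245), Nudt1 (0.248) and Capn1 (0.261), where the median gene stood at 0.922. Gtf2h5, a subunit of transcription factor TFIIH, averaged 14.1 ± 1.17 FPKM in BBBPH livers, 18.1 ± 1.63 FPKM in Model livers and 12.2 ± 1.92 FPKM in Control livers.

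**Figure D4:**
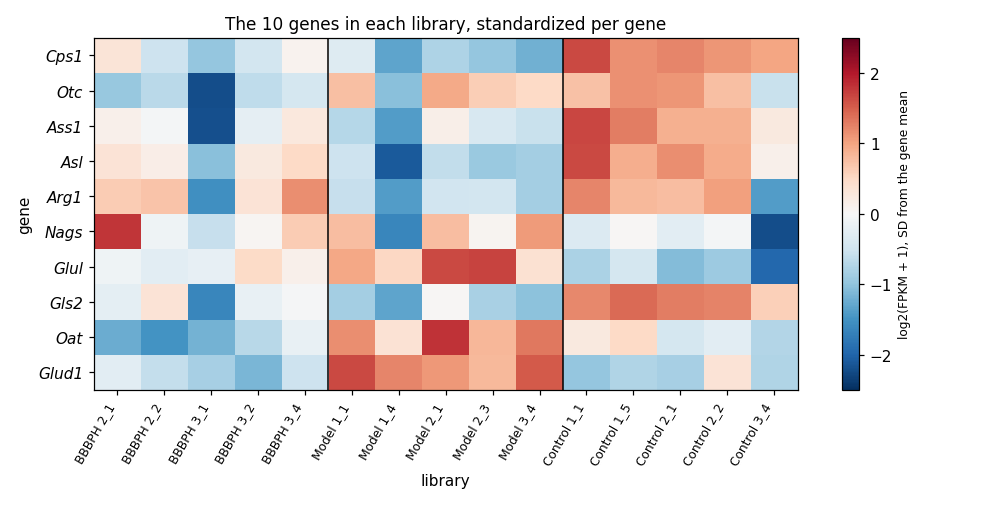
Standardized log2(FPKM + 1) of the 10 genes (rows) in the 15 libraries (columns), in SD from each gene's mean, with red above and blue below it. Cps1, Ass1, Asl and Gls2 are red across Control libraries, Glul, Oat and Glud1 are red across Model libraries, and BBBPH 3_1, Model 1_4 and Control 3_4 are the lowest of their group in 7, 8 and 9 rows.

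Other genes of ammonia handling were taken from lists written from general knowledge. Over all genes tested, 29.9% were higher and 8.64% lower in Model against Control livers. The shares were 14.2% and 12.2% in BBBPH against Model livers, and 24.4% and 3.7% in BBBPH against Control livers. The medians over all genes were 0.12, 0.02 and 0.13 in turn. List counts and medians are to be read beside these values, and no list was tested as a set. Of the carriers and supporting enzymes of the cycle, 8 of 11 were abundant enough to be tested. In Model against Control livers 1 rose and 1 fell (median log2 fold change 0.19), and 4 were called with median-ratio scaling. Slc7a2, a carrier of arginine and ornithine in the cell membrane, fell to 39.7 ± 6.81 FPKM in Model livers, against 66.1 ± 13.5 FPKM in Control livers (log2 fold change -0.71, adjusted p = 0.00130). Cad, which makes carbamoyl phosphate for pyrimidines in the cytosol, rose to 1.54 ± 0.266 FPKM in Model livers, against 0.901 ± 0.264 FPKM in Control livers (0.42, adjusted p = 0.0135). It was not called under quantile scaling (adjusted p = 0.0891) or without the 3 libraries together (adjusted p = 0.0521).

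In BBBPH against Model livers, 0 of these 8 rose and 1 fell (median -0.02). The number called was 2 without Model 3_4, without Control 2_1, or without BBBPH 3_1 and Control 3_4. With median-ratio scaling it was 2, and with quantile scaling 3. The gene that fell was Slc25a15, the mitochondrial exchanger of ornithine and citrulline. It had 57.3, 47.3, 38.5, 56.4 and 52.4 FPKM in BBBPH livers, against 76.0, 91.1, 73.3, 75.8 and 67.7 FPKM in Model livers, with no overlap (log2 fold change -0.61 ± 0.11 SE, adjusted p = 0.000707). In BBBPH against Control livers 1 rose and 2 fell (median 0.01). Slc7a2 fell (-1.03, adjusted p = 0.000304), as did Slc25a15 (-0.38, adjusted p = 0.0150), which averaged 65.6 ± 5.28 FPKM in Control livers. Cad rose (0.44, adjusted p = 0.0160) except with median-ratio and quantile scaling (adjusted p = 0.0656 and 0.123).

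Of 23 tested genes, among 28 listed, that release or transfer amino acid nitrogen, 8 rose and 1 fell in Model against Control livers (median 0.08). Over all genes, 38.6% were called, 29.9% higher and 8.64% lower (median 0.12). Amt and Gldc, both parts of the glycine cleavage system that frees ammonia from glycine, were among the 8 listed genes that rose. Amt had 32.3, 29.4, 27.8, 25.1 and 33.6 FPKM in Model livers, against 12.8, 11.2, 11.6, 10.8 and 10.9 FPKM in Control livers, far apart (log2 fold change 1.30 ± 0.14 SE, adjusted p = 9.21e-06). Gldc averaged 58.1 ± 10.1 FPKM in Model livers and 22.7 ± 6.27 FPKM in Control livers (1.34, adjusted p = 0.00135).

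In BBBPH against Model livers 1 of the 23 rose and 5 fell (median -0.09). Amt fell to 15.02 ± 3.79 FPKM in BBBPH livers, against 29.7 ± 3.44 FPKM in Model livers (log2 fold change -0.96, adjusted p = 0.000145). Gldc fell to 24.6 ± 15.2 FPKM in BBBPH livers, where 2_1 alone, at 51.3 FPKM, reached the Model range (-1.34, adjusted p = 0.00190). Asns, asparagine synthetase, rose to 2.16 ± 1.11 FPKM in BBBPH livers, against 0.451 ± 0.350 FPKM in Model livers (1.07, adjusted p = 0.00251). Asns averaged 0.905 ± 0.262 FPKM in Control livers, so it passed the filter at a mean of 1 FPKM only through the BBBPH livers. Its rise is therefore a description. Asns is the 1 listed gene counted as higher here. It is also among those counted as higher in BBBPH than in Control livers (0.66, adjusted p = 0.0380).

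In BBBPH against Control livers 2 of the 23 rose and 4 fell (median 0.01), and these 6 calls were 2 without BBBPH 3_2 or Control 2_2 and 3 without BBBPH 2_2, Control 1_1 or Control 3_4. Tat, tyrosine aminotransferase, had 206, 93.8, 95.0, 111 and 133 FPKM in BBBPH livers, against 265, 302, 499, 544 and 353 FPKM in Control livers, with no overlap (log2 fold change -1.62 ± 0.26 SE, adjusted p = 0.000716). Sds, serine dehydratase, averaged 39.0 ± 12.1 FPKM in BBBPH livers and 66.7 ± 9.93 FPKM in Control livers (-0.81, adjusted p = 0.0263). That call ended without BBBPH 3_1, BBBPH 3_2, Control 1_1 or Control 2_2 (adjusted p = 0.0632, 0.0618, 0.0605 and 0.0551), without a filter (adjusted p = 0.0543) and without BBBPH 3_1 and Control 3_4 (adjusted p = 0.0783). Bcat2, an aminotransferase of branched-chain amino acids, rose (0.42, adjusted p = 0.0192) except with median-ratio and quantile scaling (adjusted p = 0.114 and 0.172).

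Of 11 tested genes, among 17 listed, for transport of glutamine, glutamate and ammonia, 4 rose and 3 fell in Model against Control livers (median 0.18). Rhbg, an ammonia channel of the hepatocyte membrane, had 6.05, 4.18, 5.29, 6.64 and 5.41 FPKM in Model livers, against 2.68, 2.23, 2.15, 2.19 and 1.34 FPKM in Control livers. The groups lay apart, and Rhbg rose by 1.07 ± 0.13 SE on the log2 scale (adjusted p = 3.70e-05). Aqp8, a water channel that also passes ammonia, had 43.9, 48.3, 41.0, 39.5 and 29.9 FPKM in Model livers, against 13.6, 16.9, 12.4, 10.6 and 5.49 FPKM in Control livers. It too lay apart (log2 fold change 1.76 ± 0.27 SE, adjusted p = 0.000224). Slc38a4, an amino acid carrier, fell to 212 ± 17.0 FPKM in Model livers, against 306 ± 38.4 FPKM in Control livers (-0.52, adjusted p = 0.000449).

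In BBBPH against Model livers 2 of the 11 rose and 2 fell (median -0.0033). Rhbg had 1.82, 1.61, 2.00, 1.501 and 1.01 FPKM in BBBPH livers, below every Model liver (log2 fold change -1.33 ± 0.13 SE, adjusted p = 9.97e-06). Aqp8 had 9.40, 12.7, 5.18, 17.8 and 10.3 FPKM in BBBPH livers, also below every Model liver (-1.86 ± 0.27 SE, adjusted p = 0.000212). Between BBBPH and Control livers neither was called (adjusted p = 0.143 for Rhbg and 0.813 for Aqp8). Slc25a12, a mitochondrial carrier of aspartate and glutamate, rose to 2.40 ± 0.172 FPKM in BBBPH livers, against 1.73 ± 0.291 FPKM in Model livers (0.32, adjusted p = 0.00589).

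In BBBPH against Control livers 2 of the 11 rose and 2 fell (median -0.10). Slc25a44, a mitochondrial carrier of branched-chain amino acids, rose to 16.4 ± 2.02 FPKM in BBBPH livers, against 10.6 ± 1.13 FPKM in Control livers (log2 fold change 0.58, adjusted p = 0.00104). Slc38a4 fell to 231 ± 17.7 FPKM in BBBPH livers (-0.40, adjusted p = 0.00504). Slc38a2, a glutamine carrier, fell to 23.0 ± 6.68 FPKM in BBBPH livers, against 43.3 ± 14.9 FPKM in Control livers (-0.87, adjusted p = 0.0120).

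**Figure D5:**
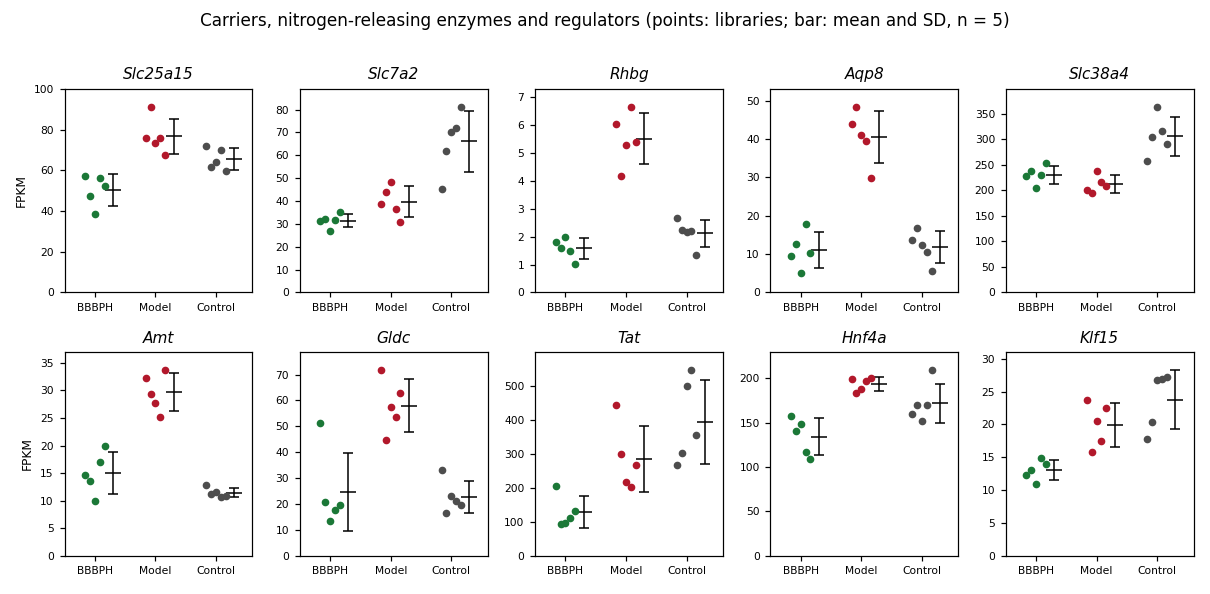
FPKM (vertical axes, from 0) of 10 genes of ammonia transport, nitrogen release and regulation in BBBPH, Model and Control livers, with 1 point per library and a bar for the mean and SD (n = 5). Rhbg, Aqp8 and Amt stand higher in all Model livers than in all BBBPH and all Control livers, and Slc25a15 is lower in all BBBPH livers than in all others.

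Of 14 tested regulators of urea cycle genes, among 16 listed, 1 rose and 1 fell in Model against Control livers (median -0.01), and 1 was called without Model 2_1, Control 2_1 or Control 3_4. With median-ratio scaling 4 were called. Foxo1, a transcription factor restrained by insulin, averaged 9.64 ± 0.789 FPKM in Model livers and 11.6 ± 0.871 FPKM in Control livers (log2 fold change -0.25, adjusted p = 0.0242). It was not called without Model 2_1, Control 2_1 or Control 3_4 (adjusted p = 0.0666, 0.0593 and 0.0515) or without 3 libraries together (adjusted p = 0.0657).

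In BBBPH against Model livers 2 of the 14 regulators rose and 3 fell (median 0.06), and these 5 calls were 3 without BBBPH 3_1, BBBPH 3_2, Model 1_4 or Model 3_4, and 3 without BBBPH 3_1 and Control 3_4. Hnf4a, a nuclear receptor of hepatocytes, had 157, 140.0, 148, 117 and 108 FPKM in BBBPH livers, against 199.5, 183, 188, 196 and 200.2 FPKM in Model livers. The groups lay apart (log2 fold change -0.54 ± 0.10 SE, adjusted p = 0.00147). Klf15, which drives amino acid breakdown, fell to 13.0 ± 1.52 FPKM in BBBPH livers, against 20.0 ± 3.35 FPKM in Model livers (-0.57, adjusted p = 0.00514). Ppara, the receptor that governs fatty acid oxidation, rose to 53.0 ± 5.07 FPKM in BBBPH livers, against 37.0 ± 5.47 FPKM in Model livers (0.51, adjusted p = 0.00416).

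In BBBPH against Control livers 5 of the 14 regulators rose and 2 fell (median -0.13), and the 7 calls were 4 without BBBPH 3_2. Klf15 fell, with 23.8 ± 4.43 FPKM in Control livers (log2 fold change -0.81, adjusted p = 0.000874). Ppara rose, with 36.8 ± 5.41 FPKM in Control livers (0.53, adjusted p = 0.00473).

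Markers of hepatocyte position are given beside the members because Cps1 and Glul are placed at opposite ends of the lobule. Of 11 tested pericentral markers, among 12 listed, 3 rose and 1 fell in Model against Control livers (median 0.29), a count of 4 that was 7 without Model 1_4. Over all genes, 38.6% were called, 29.9% higher and 8.64% lower (median 0.12). Slc13a3, a dicarboxylate carrier, rose to 15.6 ± 9.65 FPKM in Model livers, against 3.80 ± 0.701 FPKM in Control livers (log2 fold change 1.65, adjusted p = 0.000173). Lect2 rose to 84.4 ± 6.54 FPKM in Model livers, against 52.7 ± 11.3 FPKM in Control livers (0.70, adjusted p = 0.00147). Cyp1a2, a drug-metabolizing P450, fell to 133 ± 18.6 FPKM in Model livers, against 212 ± 24.6 FPKM in Control livers (-0.66, adjusted p = 0.00227), so the named markers did not share 1 direction.

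In BBBPH against Model livers 4 of the 11 pericentral markers rose and 2 fell (median 0.20). Slc13a3 fell to 5.89 ± 0.959 FPKM in BBBPH livers (log2 fold change -1.13, adjusted p = 0.00381). Tbx3, a transcription factor induced by Wnt signals, rose to 7.77 ± 2.64 FPKM in BBBPH livers, against 3.61 ± 1.31 FPKM in Model livers (0.93, adjusted p = 0.00428), and Cyp1a2 rose to 205 ± 45.8 FPKM in BBBPH livers (0.59, adjusted p = 0.00666). In BBBPH against Control livers 4 rose and 0 fell (median 0.27). These 4 calls were 2 with median-ratio or quantile scaling, and 1 with a filter at 5 FPKM, where fewer genes were tested. Tbx3 averaged 2.21 ± 0.406 FPKM in Control livers (1.41, adjusted p = 0.000497). The Wnt target Axin2 rose to 1.94 ± 0.530 FPKM in BBBPH livers, against 0.661 ± 0.233 FPKM in Control livers (0.82, adjusted p = 0.00435). Axin2 averaged 1.08 ± 0.544 FPKM in Model livers, and it passed the filter at a mean of 1 FPKM only through the BBBPH livers. Its rise is therefore a description. The 4 pericentral markers counted as higher in BBBPH than in Control livers include Axin2. Those counted as higher in BBBPH than in Model livers include it too (0.52, adjusted p = 0.0388). Rnf43, another Wnt target, rose to 4.48 ± 1.71 FPKM in BBBPH livers, against 2.56 ± 0.680 FPKM in Control livers (0.60, adjusted p = 0.0166), except with median-ratio and quantile scaling (adjusted p = 0.0535 and 0.0695) and without BBBPH 3_1 and Control 3_4 (adjusted p = 0.0582).

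All 10 periportal markers were tested, and 1 rose and 4 fell in Model against Control livers (median -0.54). Etnppl, which breaks down phosphoethanolamine, fell to 34.1 ± 8.09 FPKM in Model livers, against 71.7 ± 16.6 FPKM in Control livers (log2 fold change -1.05, adjusted p = 0.000488). Cdh1, E-cadherin, fell to 2.33 ± 1.28 FPKM in Model livers, against 6.35 ± 1.07 FPKM in Control livers (-1.21, adjusted p = 0.000848). Cyp2f2, a P450, fell to 400.1 ± 66.7 FPKM in Model livers, against 583 ± 55.4 FPKM in Control livers (-0.55, adjusted p = 0.00177).

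In BBBPH against Model livers 3 of the 10 periportal markers rose and 2 fell (median -0.27), and the named ones went both ways. Cdh1 rose to 6.40 ± 1.55 FPKM in BBBPH livers (log2 fold change 1.21, adjusted p = 0.00128), while Etnppl fell to 17.4 ± 3.39 FPKM in BBBPH livers (-0.92, adjusted p = 0.00173). Aldh1b1, a mitochondrial aldehyde dehydrogenase, fell to 8.15 ± 3.23 FPKM in BBBPH livers, against 20.9 ± 7.18 FPKM in Model livers (-1.30, adjusted p = 0.00638). In BBBPH against Control livers 1 rose and 5 fell (median -0.40). Etnppl fell (-1.97, adjusted p = 2.25e-05), and Cyp2f2 fell to 338 ± 38.3 FPKM in BBBPH livers (-0.79, adjusted p = 0.000458). Atp7b, the copper-exporting ATPase, rose to 5.91 ± 1.69 FPKM in BBBPH livers, against 2.96 ± 0.274 FPKM in Control livers (0.77, adjusted p = 0.00118).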

How the data were processed

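The 15 liver samples gave total RNA by TRIzol and libraries by the VAHTS Universal V6 kit, per the labels' protocols, which state no strand setting. The values are FPKM as deposited by the authors, 1 column per library and not pooled. Per the submitters' processing notes, which give no version, role or order, the build was mm10 and the tools included HISAT2, HTSeq, fastp and DESeq2. Annotation and filters are not given in the sources used here. The series table equalled the 15 single files (largest difference 0 FPKM).

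The test was run on log2(FPKM + 1), which understates changes of low genes, for the 9575 genes averaging 1 FPKM or more, all 10 members among them. It used limma 3.58.1 under R 4.3.3, with statmod 1.5.0. The model had 1 mean per group and no replicate block, which left 12 residual degrees of freedom, with a trended eBayes prior. All p-values are 2-sided, with Benjamini-Hochberg adjustment within each comparison and calls under 0.05. Alternatives were a pseudocount of 0.1, no filter or one at 5 FPKM, TPM, median-ratio and quantile scaling, the 20 most abundant genes left out, voom on recovered counts, another eBayes setting, replicate blocks, and libraries left out singly or together. Leaving out BBBPH 3_1 and Control 3_4, and fitting 2 groups alone, were chosen after seeing the data.

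Fragment counts were recovered for 17524 of 17527 genes from whole-number ratios within a gene. A gene was accepted when a common factor brought its nonzero values within 0.02 of a whole number. The share of accepted values within that limit, 100%, thus follows from the rule. The gene length recovered from the counts was within 0.02 of a whole number for 16844 genes. Depth was 37.86 ± 1.20 (BBBPH), 36.95 ± 0.77 (Model) and 36.29 ± 0.64 (Control) in units of 1e+06 fragments, and 1 fragment per kilobase gave 0.0252 to 0.0283 FPKM. The 30 pairs of libraries of the same group gave a chi-square per gene of 29.1 to 323, far above the 1 of sampling noise, so none was a copy. Pairs of Model 1_4 with the other Model libraries gave 224 to 323, and the highest other pair gave 112. The procedure was tested on simulated data. Positions came from GENCODE M21, where 16906 symbols matched 1 gene. Python 3.11.15, numpy 2.4.6, pandas 2.3.3 and matplotlib 3.10.9 were used.

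The members, 6 gene lists and 8 marker lists were chosen with earlier results of these data known. Named genes were all members, up to 3 called genes per list and comparison with the smallest adjusted p, and the 4 genes most like Cps1 and Glul, with a few of the list genes not reported here.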

Additional observations from a re-analysis of the deposited data

Results flagged for a closer look

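A single liver stood apart from the other 4 of its group, by Dixon's test at the 95% level, in 13 of 141 groups of values for the 47 named genes, and 8 of these were among the 30 groups of member values. Chance alone flags about 1 in 20 groups on average. All genes were read from the same 15 libraries, so 1 low liver can flag several genes. The groups are therefore not independent, and the number flagged was not tested against that rate. Among the members, Ass1 had 519.8 FPKM in BBBPH 3_1, against 1051 to 1246 FPKM in the other BBBPH livers, and Asl had 163.3 FPKM in that liver, against 240.1 to 265.9 FPKM. Otc had 74.96 FPKM in Model 1_4, against 99.86 to 108.9 FPKM in the other Model livers. Control 3_4 was low in 4 members, with Otc at 81.96 FPKM against 104.3 to 113.0 FPKM in the other Control livers, Arg1 at 630.0 against 892.2 to 959.9, Nags at 15.43 against 20.52 to 21.7, and Gls2 at 121.0 against 147.0 to 157.0. Glud1 was high in Control 2_2, at 371.5 FPKM against 294.7 to 306.3 FPKM.

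Among the other genes, Gldc had 51.27 FPKM in BBBPH 2_1, against 13.46 to 20.84 FPKM in the other BBBPH livers, and Rnf43 had 7.454 FPKM in BBBPH 3_2, against 3.376 to 4.374 FPKM. Among Control livers, Atp7b had 2.477 FPKM in Control 3_4, against 3.027 to 3.131 FPKM in the others, Slc38a2 had 69.39 FPKM in that liver, against 34.21 to 41.17 FPKM, and Ppara had 27.35 FPKM in Control 1_1, against 37.59 to 40.59 FPKM.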

How the results depend on the processing

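With a filter at 5 FPKM, 2259, 1634 and 1502 genes were called in Model over Control, BBBPH over Model and BBBPH over Control, where fewer genes were tested, and BBBPH over Control had 1611 with median-ratio and 1540 with quantile scaling, for which the cause was not tested. Leaving out each liver gave 3112 to 3761, 2084 to 2647 and 1887 to 2845 genes, and 7 to 8, 2 to 6 and 4 to 7 members. Called members in BBBPH over Model were 3 without a filter, 3 without BBBPH 2_2, Model 1_4 and Control 2_1 together, and 8 without BBBPH 3_1 and Control 3_4. Voom on recovered counts called 3653, 2571 and 2660 genes. The replicate numbers did not pair the libraries, as residuals of 8 same-number pairs correlated at -0.33 to 0.02 and 0 of 10 libraries matched their own number best. As a fixed replicate block, with 4 residual degrees of freedom, the number gave 1315, 305 and 185 genes, and 1 member in BBBPH over Model (Oat; Glud1 missed the threshold at adjusted p = 0.0531) and 1 in BBBPH over Control (Cps1). Its first digit as a replicate block gave 2 members in BBBPH over Model (Oat and Glud1). Some uncalled log2 fold changes of members changed sign, and no called one did. Otc in Model over Control was 0.072 in the number block, 0.051 without the 3 libraries, and -0.15 to 0.020 with each liver left out. In BBBPH over Model, Ass1 was -0.067 and Nags -0.039 without the 3 libraries, and -0.019 to 0.31 and -0.064 to 0.080 with each liver left out. In BBBPH over Control, Arg1 was 0.063 with quantile scaling, 0.13 and 0.036 in the number and digit blocks, and -0.16 to 0.053 with each liver left out, and Glud1 was 0.0095 in the number block and -0.047 to 0.040 with each liver left out. Of the other log2 fold changes, 2163 kept their side of the threshold, 92 lost their call and 27 gained one, and 59 counts of called list genes moved by over 1.5 times, where 481 did not. Depth did not limit the members, at 1155 fragments or more.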
